A study of Mus musculus with 12 samples.

Results

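The cAMP-responsive transcription factors of the CREB family, their CRTC coactivators and the salt-inducible kinases (SIKs) that hold these coactivators back were followed in mouse white adipocytes. The 9 genes were chosen by name for their place in this pathway, with earlier results of these data known. These genes are Crem, Creb1 and Atf1, then Crtc1, Crtc2 and Crtc3, then Sik1, Sik2 and Sik3. They are 9 of the 20295 genes in the count table, and all 9 were among the 13543 genes with enough counts to be tested. The data are RNA sequencing counts from mature epididymal white adipocytes (eWAs) of lean male C57/BL6J mice, which had been freed by collagenase, collected by floating and cultured within a hydrogel for 2 days. The 12 libraries form 4 groups of 3. The DMSO group received vehicle, the ISO group received the pan β-adrenergic agonist isoproterenol for 3 h, the Lip group received lipase inhibitors, and the Lip+ISO group received the inhibitors and then ISO for 3 h. The study names the inhibitors as Atglistatin, directed at the triglyceride lipase ATGL, and CAY10499, directed at hormone-sensitive lipase (HSL). The agonist was thus given with and without lipase inhibitors. The study reports fatty acid release into the medium for brown adipocytes but not for these cells. For these cells one legend gives SR-3420, an activator of lipolysis, as the stimulus, whereas the titles of the samples and the main text give ISO, which is used here. All 4 groups share the isolation and the hydrogel, and the floated fraction still held transcripts of other cell types. The study describes the replicates as independent experiments, and the labels do not tie them to animals, so p-values measure the spread between these experiments.

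β-adrenergic receptors raise cAMP, which activates protein kinase A. Protein kinase A phosphorylates CREB1, ATF1 and CREM, which bind the cAMP response element (CRE), and it also phosphorylates the SIKs, which then no longer keep the CRTCs in the cytoplasm, so that the CRTCs enter the nucleus and join CREB on its targets. The pathway holds its own brakes, since the Crem gene also has an internal promoter that gives the short repressor ICER, and Sik1 is itself a CREB target whose kinase counters the CRTCs. In adipocytes the pathway is known as the route from adrenergic signals to lipolytic and thermogenic gene expression.

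The CRE is the palindrome TGACGTCA and its core is TGACG, read on the other strand as CGTCA, so that every full CRE holds the core on both strands. To show which of the genes carry these letters near their start, RefSeq promoter windows (GRCm38.p6, 250 bases before and 50 bases after the start) were searched on both strands. Windows were at hand for 6 of the 9 genes, namely Creb1, Atf1, Crtc1, Crtc3, Sik2 and Sik3. The full CRE was in 0 of these 6 windows, and in 1.79% of all 32851 windows. The core was found in 3 of them, against 20.81% of all windows. It occurred 3 times before the start of Sik3, at positions -133, -116 and -57 counted to the first base of each match from the start base as 0, and 5.01% of all windows held 2 or more matches. It occurred once before the start of Atf1, at -90. Sik2 had 2 matches at the start itself, at -1 and 12, and Creb1, Crtc1 and Crtc3 had none. The 250 bases before the start are printed for Sik3 and Atf1, which carry the core, and for Crtc3, which fell with ISO and does not, from chr9:46012570-46012819 (plus strand), chr15:100227609-100227858 (plus strand) and chr7:80688878-80689127 (minus strand), with each match to the core in capitals. A match is a description of letters and not evidence of binding.
Sik3: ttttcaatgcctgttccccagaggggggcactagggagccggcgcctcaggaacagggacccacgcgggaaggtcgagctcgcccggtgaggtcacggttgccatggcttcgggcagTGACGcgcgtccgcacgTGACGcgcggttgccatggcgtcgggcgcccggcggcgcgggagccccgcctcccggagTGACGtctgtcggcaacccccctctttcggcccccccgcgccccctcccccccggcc
Atf1: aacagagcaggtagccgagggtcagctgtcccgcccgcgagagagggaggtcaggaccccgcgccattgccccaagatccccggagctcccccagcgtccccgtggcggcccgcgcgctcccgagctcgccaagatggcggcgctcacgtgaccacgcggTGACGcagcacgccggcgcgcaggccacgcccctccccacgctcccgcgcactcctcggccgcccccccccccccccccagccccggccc
Crtc3: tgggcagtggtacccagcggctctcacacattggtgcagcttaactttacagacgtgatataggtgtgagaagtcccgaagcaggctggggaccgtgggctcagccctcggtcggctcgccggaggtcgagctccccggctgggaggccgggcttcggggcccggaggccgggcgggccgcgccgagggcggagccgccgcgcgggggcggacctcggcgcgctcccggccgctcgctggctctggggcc

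Each gene was counted over the exons of 1 RefSeq transcript on mm9. Crem (NM_001110859) lies on chromosome 18 from 3266352 to 3327589 on the minus strand, Creb1 (NM_009952) on chromosome 1 from 64579378 to 64651122 on the plus strand, and Atf1 (NM_007497) on chromosome 15 from 100058290 to 100091679 on the plus strand. Crtc1 (NM_001004062) lies on chromosome 8 from 72906257 to 72963472, minus strand, Crtc2 (NM_028881) on chromosome 3 from 90058203 to 90068047, plus strand, and Crtc3 (NM_173863) on chromosome 7 from 87731518 to 87833763, minus strand. Sik1 (NM_010831) lies on chromosome 17 from 31981195 to 31992737, minus strand, and Sik2 (NM_178710) and Sik3 (NM_027498) both lie on chromosome 9, from 50700906 to 50817178 on the minus strand and from 45820903 to 46032277 on the plus strand. Sik1 has a single annotated transcript, whereas Crem has 41 in the GENCODE annotation of the same assembly, 34 of them coding, with 26 distinct starts of which 18 fall inside the counted span. A single row for Crem therefore cannot tell full-length CREM from ICER. Sik2 overlaps Ppp2r1b, a subunit gene of protein phosphatase PP2A on the opposite strand, by 1429 bp. Its span is 116273 bp, but only 2963 bp of exon were counted, and how much of the overlap lies in them was not determined. The counting is not stated to use strand, so a part of its reads of unknown size is uncertain.

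The libraries held 22632220 to 43707557 counts, a 1.93-fold range, and the 9 genes had 358 to 11481 counts in every library, so that none was near the limit of detection. The adipocyte identity of the samples was checked on 8 markers, whose summed level was 22660 to 35490 CPM (counts relative to the TMM-scaled library size) in the 12 libraries, with none at 0. Summed markers of macrophages were 48.8 to 63.8 CPM in DMSO and 105.9 to 157.9 in ISO, those of endothelial cells 103.5 to 200.5 and 247.3 to 452.9, those of fibroblasts 340.6 to 602.4 and 692.9 to 950.2, and those of mesothelial cells 29.4 to 72.2 and 72.1 to 86.1. With ISO against DMSO, 6 of 7 tested macrophage markers, 1 of 8 endothelial, 4 of 8 fibroblast and 1 of 8 mesothelial markers rose, while 1 of 8 adipocyte markers fell. Over all tested genes 12.3% rose and 13.9% fell in this comparison. The sums in Lip and Lip+ISO were 51.9 to 58.6 and 67.1 to 117.2 CPM for macrophages, 52.3 to 177.0 and 82.8 to 246.5 for endothelial cells, 458.0 to 505.2 and 437.9 to 574.8 for fibroblasts, and 15.2 to 125.7 and 47.4 to 66.1 for mesothelium. With Lip+ISO against Lip, 3 macrophage, 1 endothelial, 0 fibroblast and 1 mesothelial markers rose, and 2 adipocyte markers fell. Here 11.5% of all tested genes rose and 15.8% fell. Among the defining markers, Cd163 of macrophages (at most 0.243 CPM) and Msln of mesothelium (at most 1.19 CPM) were each at 0 in 1 library. Lip replicate 3 lay apart from the other 11 libraries on the third principal component (7.39% of the variance), and its mesothelial sum was 125.7 CPM, against 15.2 and 37.7 in the other Lip libraries. The part of these other cells in the results was not tested, and in bulk samples fewer cells of a type and less RNA per cell cannot be told apart.

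To ask how the pathway's own genes respond to a β-adrenergic signal, ISO was compared with DMSO, and Lip+ISO with Lip in the other 6 libraries. Crem and Sik1 were the genes that moved most, rising about 7.22-fold and 11.3-fold without and 13.7-fold and 12.8-fold with the inhibitors. Crtc3, a CREB coactivator, fell in both settings, and Sik3 rose modestly in both. Without the inhibitors 3 of the 9 genes rose (Crem, Sik1 and Sik3) and 1 fell (Crtc3), where 12.3% of all tested genes rose and 13.9% fell (edgeR quasi-likelihood F-test, a call of any size at an adjusted p of 0.05 or less over all tested genes). With the inhibitors the same 3 genes rose and 4 fell (Creb1, Crtc1, Crtc2 and Crtc3), where 11.5% of all tested genes rose and 15.8% fell. The groups did not overlap for 7 of the 9 genes in ISO against DMSO, where this held for 43.3% of all tested genes, and for 7 in Lip+ISO against Lip, where it held for 39.1%. Ordered by the size of the log2 fold change among all tested genes, Sik1 was number 68 and Crem number 122 from the top in ISO against DMSO, and Crtc3 was number 571 from the bottom.

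**Figure D1:**
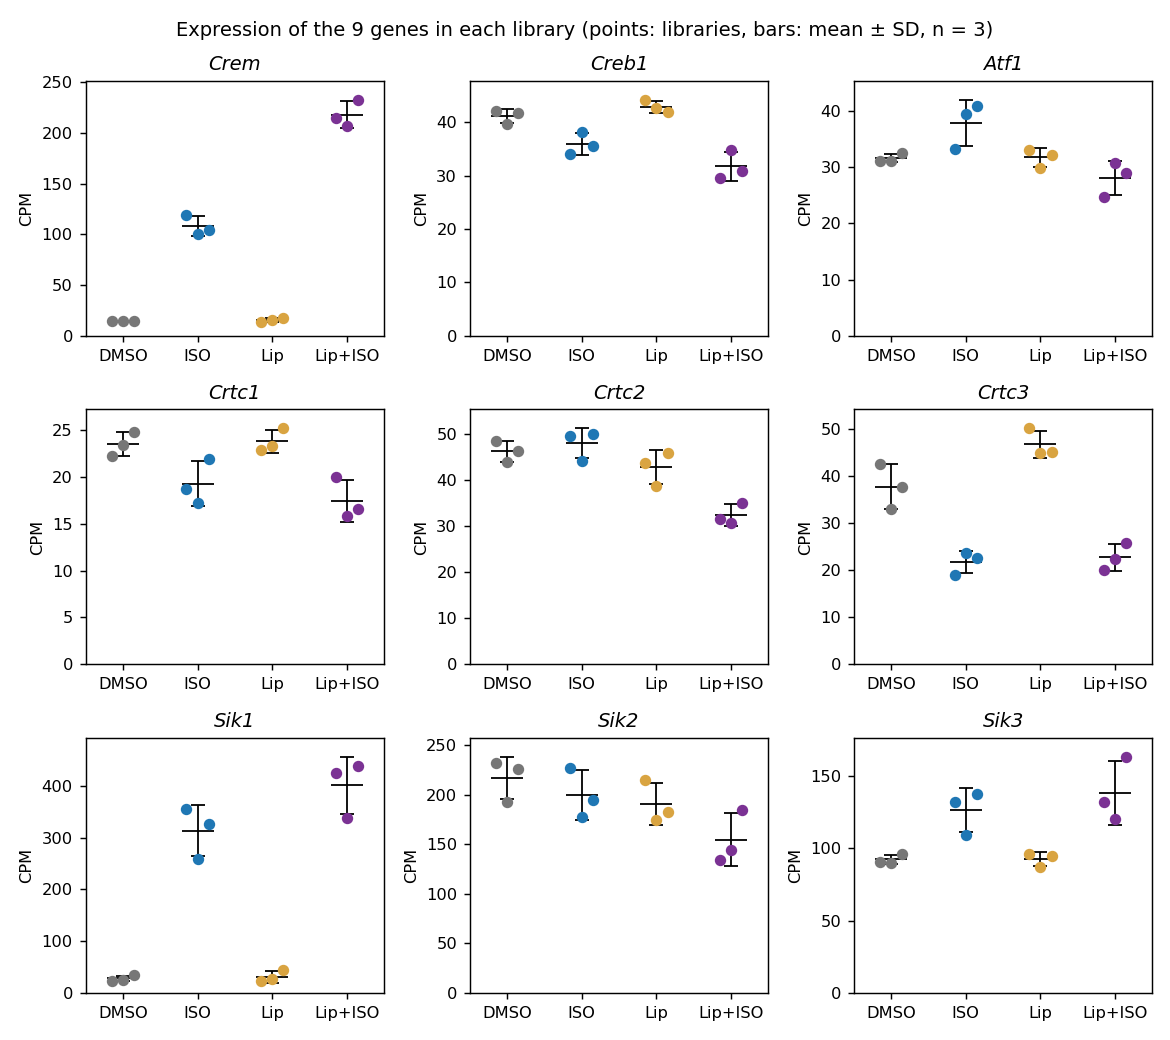
Expression of the 9 genes in CPM (vertical axes, from 0) in each library of the 4 groups (points), with the mean ± SD of 3 libraries (bars). The ISO and Lip+ISO libraries of Crem and Sik1 lie far above those without ISO, and those of Crtc3 lie below them.

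Crem encodes the cAMP response element modulator, which comes as activator and as repressor. Its level was 14.7, 15.02 and 15.15 CPM in the DMSO libraries and 119.5, 100.3 and 104.3 CPM in the ISO libraries. It was 13.8, 15.8 and 17.9 CPM in the Lip libraries and 214.2, 206.4 and 232.3 CPM in the Lip+ISO libraries. Every library with ISO was therefore above every library without it, and every Lip+ISO library was above every ISO library. In log2 units Crem rose by 2.85 ± 0.10 with ISO (± SE, 95% confidence interval 2.64 to 3.07, edgeR adjusted p = 6.7e-09) and by 3.78 ± 0.10 with ISO after the inhibitors (3.57 to 3.99, edgeR adjusted p = 7.9e-10).

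Creb1, the founding CREB factor and an activator, showed small differences. Its DMSO libraries had 42.0, 39.6 and 41.6 CPM and its ISO libraries 34.0, 38.2 and 35.6 CPM, which do not overlap. The log2 difference was -0.19 ± 0.08 (95% confidence interval -0.37 to -0.01), and it did not pass over all genes (edgeR adjusted p = 0.102). The Lip libraries had 44.1, 42.6 and 41.9 CPM and the Lip+ISO libraries 29.5, 34.8 and 30.9 CPM. Here Creb1 fell by 0.43 ± 0.08 on the log2 scale (edgeR adjusted p = 0.00163), and all Lip+ISO libraries were below all Lip libraries.

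Atf1, the closest relative of CREB1 and another activator of CRE promoters, had 31.1, 31.2 and 32.5 CPM in DMSO and 33.2, 39.4 and 40.95 CPM in ISO. The groups were apart, but the log2 difference of 0.26 ± 0.10 did not pass (edgeR adjusted p = 0.0776). With the replicate number as a block, which treats same-numbered libraries as paired, it did (edgeR adjusted p = 0.0409). With the inhibitors Atf1 had 33.1, 29.8 and 32.2 CPM in Lip and 24.7, 30.7 and 28.9 CPM in Lip+ISO, which overlap, and the difference was -0.17 ± 0.10 (edgeR adjusted p = 0.252).

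The coactivators came next. Crtc1, the CRTC best known from neurons, had 22.2, 23.3 and 24.8 CPM in DMSO and 18.7, 17.2 and 21.9 CPM in ISO, a log2 difference of -0.29 ± 0.12 that did not pass (edgeR adjusted p = 0.0884) but did with the replicate block (edgeR adjusted p = 0.0447). It had 22.9, 23.2 and 25.1 CPM in Lip and 19.9, 15.8 and 16.5 CPM in Lip+ISO. That fall, of 0.45 ± 0.12 on the log2 scale, passed (edgeR adjusted p = 0.0116), and its adjusted p was up to 0.125 in the 3 of 15 fits that lost it, which left out Lip+ISO replicate 2, replicate 2 of every group or replicate 3 of every group.

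Crtc2, the CRTC that drives gluconeogenic genes in liver, did not differ between DMSO (48.5, 43.9 and 46.2 CPM) and ISO (49.6, 44.2 and 49.99 CPM) beyond the spread. The log2 difference was 0.05 ± 0.09 with a 95% confidence interval of -0.15 to 0.25 (edgeR adjusted p = 0.707), and the groups overlapped. In the inhibitor groups it had 43.6, 38.7 and 45.9 CPM in Lip and 31.5, 30.7 and 35.0 CPM in Lip+ISO. All 3 Lip+ISO libraries were lower, by 0.40 ± 0.09 on the log2 scale (edgeR adjusted p = 0.00543), a call that was lost without replicate 1 of every group (edgeR adjusted p = 0.0816).

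Crtc3, the CRTC whose loss is known to protect mice from diet-induced obesity, was the member with the clearest fall. It had 42.6, 33.0 and 37.7 CPM in DMSO and 19.03, 23.6 and 22.6 CPM in ISO. It had 50.2, 44.97 and 45.2 CPM in Lip and 20.2, 22.4 and 25.9 CPM in Lip+ISO. No library with ISO reached the lowest library without it. Crtc3 fell by 0.80 ± 0.12 on the log2 scale with ISO (95% confidence interval -1.06 to -0.53, edgeR adjusted p = 5.1e-04) and by 1.03 ± 0.12 with ISO after the inhibitors (-1.30 to -0.77, edgeR adjusted p = 4.0e-05).

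Among the kinases, Sik1, the family member that is itself switched on by cAMP, moved most. Its DMSO libraries had 23.7, 25.6 and 34.3 CPM and its ISO libraries 354.3, 259.6 and 326.4 CPM. Its Lip libraries had 22.4, 26.04 and 44.9 CPM and its Lip+ISO libraries 425.6, 337.3 and 439.0 CPM. The lowest library with ISO was thus far above the highest without it, which was Lip replicate 3, the library with the high mesothelial sum. Sik1 rose by 3.49 ± 0.23 on the log2 scale with ISO (95% confidence interval 3.00 to 3.99, edgeR adjusted p = 9.7e-07) and by 3.68 ± 0.23 with ISO after the inhibitors (3.19 to 4.18, edgeR adjusted p = 3.0e-07).

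Sik2, the kinase of the family first described in adipose tissue, had 232.0, 192.5 and 225.8 CPM in DMSO and 227.1, 176.9 and 195.0 CPM with ISO. The groups overlapped, with a log2 difference of -0.12 ± 0.13 and a 95% confidence interval of -0.41 to 0.17 (edgeR adjusted p = 0.542). In Lip it had 214.5, 174.5 and 182.4 CPM and in Lip+ISO 134.1, 144.4 and 184.4 CPM, which again overlap, and the difference of -0.30 ± 0.13 did not pass (edgeR adjusted p = 0.119). The overlapping gene Ppp2r1b, at 294 ± 18.2 CPM in DMSO and 249.5 ± 33.0 in ISO (SD, n = 3), differed by -0.24 (edgeR adjusted p = 0.17).

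Sik3, the most broadly expressed SIK, had 90.9, 90.1 and 96.1 CPM in DMSO and 132.2, 109.1 and 138.0 CPM in ISO, with no overlap. It rose by 0.45 ± 0.11 on the log2 scale (edgeR adjusted p = 0.0114), a call lost when ISO replicate 3 or every replicate 1 was left out (edgeR adjusted p up to 0.105). In Lip it had 96.5, 87.0 and 94.8 CPM and in Lip+ISO 131.9, 120.7 and 163.4 CPM, a rise of 0.58 ± 0.11 (edgeR adjusted p = 0.00201). The rises of Crem and Sik1 and the falls of Crtc3 passed in all 15 fits that left out 1 library or 1 replicate number, in both comparisons, as did the fall of Creb1 and the rise of Sik3 with the inhibitors.

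**Figure D2:**
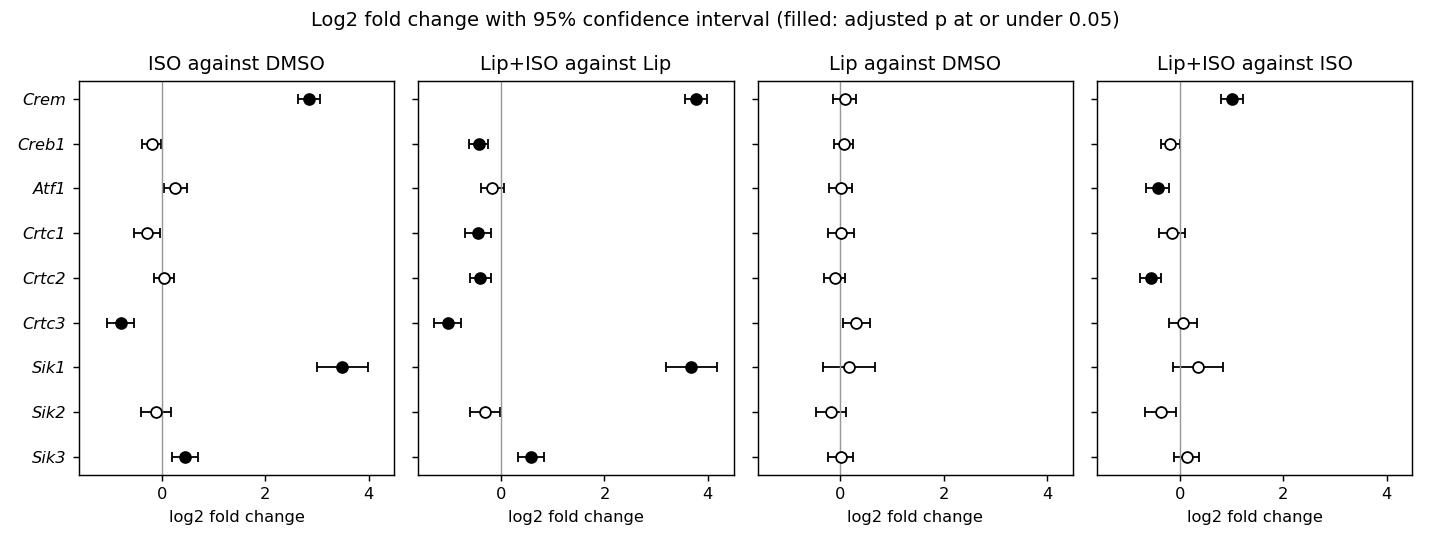
Log2 fold changes of the 9 genes (horizontal axes) in the 4 comparisons, with 95% confidence intervals from edgeR. Filled points passed an adjusted p of 0.05 over all tested genes. Crem stands far right in both comparisons with ISO and again at 1.01 in Lip+ISO against ISO, whereas no point is filled in Lip against DMSO.

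The lipase inhibitors alone were tested by comparing Lip with DMSO. None of the 9 genes passed in edgeR, in DESeq2 or with the replicate block, where 0.00738% of all tested genes rose and 0.0443% fell. At an unadjusted p under 0.05 there was 1 of the 9 genes, Crtc3, and 582 of all tested genes. Crtc3 was also the only one of the 9 whose groups did not overlap, which 10.4% of all tested genes showed, with 45.0 to 50.2 CPM in Lip and 33.0 to 42.6 CPM in DMSO, a log2 difference of 0.31 ± 0.12 (edgeR adjusted p = 0.951). The estimates of the other 8 genes lay between -0.19 (Sik2) and 0.17 (Sik1). The 95% confidence interval of Crem was -0.14 to 0.31 and that of Sik1 -0.34 to 0.67, and the estimate for Sik1 was -0.21 without Lip replicate 3.

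The effect of the inhibitors while ISO was present was read from Lip+ISO against ISO. These groups each also serve in a comparison above, so the values are not independent of those. Crem was higher with the inhibitors, and Crtc2 and Atf1 were lower. Of the 9 genes 1 rose and 2 fell, where 4.36% of all tested genes rose and 4.59% fell, and the groups of these 3 genes did not overlap, as for 25.4% of all tested genes. Crem rose from 108 ± 10.1 to 218 ± 13.3 CPM (SD, n = 3), up by 1.01 ± 0.09 log2 units (± SE, edgeR adjusted p = 4.1e-05). Crtc2 fell from 47.9 ± 3.25 to 32.4 ± 2.30 CPM, by 0.56 ± 0.09 (edgeR adjusted p = 0.00207). Both passed in all 15 fits that left libraries out. Atf1 fell from 37.9 ± 4.10 to 28.1 ± 3.05 CPM, by 0.43 ± 0.10 (edgeR adjusted p = 0.0204), but 6 of the 15 fits, each lacking ISO replicate 2 or 3, Lip+ISO replicate 1 or 3, or replicate 2 or 3 of every group, lost this call (edgeR adjusted p up to 0.209), as did a fit of these 6 libraries alone (0.0892). Sik1 had a difference of 0.35 ± 0.22 that did not pass (95% confidence interval -0.13 to 0.84, edgeR adjusted p = 0.369). Its interval overlapped that of Crem (0.80 to 1.22), and Crem and Sik1 were not tested against each other. Sik2 differed by -0.37 ± 0.13 (edgeR adjusted p = 0.112, and 0.0367 with the replicate block). Creb1 differed by -0.18 (edgeR adjusted p = 0.212), Crtc1 by -0.14 (0.50), Crtc3 by 0.07 (0.786) and Sik3 by 0.13 (0.519). Over these same groups 3 of 8 fibroblast, 1 of 8 endothelial and 1 of 8 adipocyte markers fell, and none of the macrophage or mesothelial markers passed. The part of these cells in the differences was not tested.

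Whether the response to ISO itself differed with the inhibitors was tested as an interaction, the response with the inhibitors minus that without. Crem passed, with a larger rise when the lipases were inhibited, and Crtc2 did not pass except, among the alternatives run, with the replicate block and with library totals in place of TMM. The interaction of Crem was 0.93 ± 0.14 log2 units (95% confidence interval 0.62 to 1.23, edgeR adjusted p = 0.00495), where 0.901% of all tested genes had a positive and 0.724% a negative interaction. Without replicate 2 or without replicate 3 of every group it was no longer called, at 0.86 to 1.03 over the 15 fits and an adjusted p of up to 0.18. The interaction of Crtc2 was -0.45 ± 0.13 (edgeR adjusted p = 0.118, and 0.0158 with the replicate block). Its log2 response to ISO was 0.05 without the inhibitors and -0.40, a fall, with them. The interaction was -0.43 ± 0.14 for Atf1 (edgeR adjusted p = 0.187) and -0.24 for both Creb1 (0.397) and Crtc3 (0.606). For Sik1 it was 0.19 ± 0.32 with a 95% confidence interval of -0.51 to 0.89 (edgeR adjusted p = 0.852).

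To compare levels between genes, CPM were divided by the counted exon length of each gene, from 2329 bp for Atf1 to 8421 bp for Creb1. In DMSO, Sik2 led at 73.2 ± 7.16 CPM per kilobase (SD, n = 3), followed by Crtc2 (17.6 ± 0.871), Sik3 (14.7 ± 0.520), Atf1 (13.6 ± 0.332), Crtc3 (7.40 ± 0.941), Crem (6.34 ± 0.0946), Sik1 (6.17 ± 1.25), Creb1 (4.88 ± 0.153) and Crtc1 (4.13 ± 0.222). Only Crem and Sik1 overlapped among neighbours in that order. The level of Sik2 in each group may include reads of the overlapping gene Ppp2r1b. In ISO, Sik1 (69.5 ± 10.8 CPM per kilobase) and Sik2 (67.4 ± 8.59) overlapped at the top and Crem was next at 45.8 ± 4.29. Sik3 (20.1), Crtc2 (18.2) and Atf1 (16.3) then overlapped in turn, as did Creb1 (4.26), Crtc3 (4.26) and Crtc1 (3.40) at the bottom. In Lip the order was that of DMSO at both ends, with Sik2 first at 64.3 ± 7.16 and Creb1 (5.09) and Crtc1 (4.18) last. Between them Crtc2 (16.3), Sik3 (14.8) and Atf1 (13.6) overlapped in turn, as did Crtc3 (9.15), Sik1 (6.91) and Crem (6.71). In Lip+ISO, Crem (92.2 ± 5.64 CPM per kilobase) and Sik1 (88.9 ± 12.3) overlapped at the top, ahead of Sik2 (52.1 ± 8.98) and Sik3 (22.1 ± 3.52). Crtc2 (12.3) and Atf1 (12.1) overlapped below them, and Crtc3 (4.47), Creb1 (3.77) and Crtc1 (3.07) overlapped in turn at the end.

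These levels gave the makeup of each family. Crem made up 25.6% ± 0.386 (SD, n = 3) of the CREB family transcripts per kilobase in DMSO, 69.0% ± 3.91 in ISO, 26.4% ± 2.92 in Lip and 85.3% ± 1.62 in Lip+ISO. Per kilobase Atf1 was the leading CREB factor without ISO, at 54.8% in DMSO and 53.6% in Lip, and made up 24.6% in ISO and 11.2% in Lip+ISO. This lead depends on the division by length. In CPM, Creb1 was above Atf1 on average in DMSO (41.1 against 31.6) and in Lip (42.9 against 31.7). The family total was 24.8 ± 0.463 CPM per kilobase in DMSO, 66.3 ± 2.51 in ISO, 25.4 ± 0.897 in Lip and 108 ± 5.60 in Lip+ISO. Sik1 made up 6.57% ± 1.16 of the SIK transcripts in DMSO, 44.2% ± 1.26 in ISO, 8.08% ± 3.13 in Lip and 54.6% ± 3.66 in Lip+ISO. Sik2 made up 77.8% in DMSO and 43.0% in ISO, and 74.7% in Lip and 31.95% in Lip+ISO. Reads of the overlapping gene Ppp2r1b, if counted for Sik2, would change all SIK shares and totals. The SIK total was 94.0 ± 7.85 CPM per kilobase in DMSO and 157 ± 21.0 in ISO. Per kilobase Crtc2 was the leading coactivator everywhere, at 60.4% in DMSO, 70.4% in ISO, 54.9% in Lip and 62.1% in Lip+ISO, and Crtc3 made up 25.3%, 16.5%, 31.0% and 22.5%. In CPM, Crtc3 was above Crtc2 on average in Lip (46.8 against 42.7). The CRTC total was 27.3 to 30.7 CPM per kilobase in DMSO, 24.5 to 27.3 in ISO, 27.6 to 30.7 in Lip and 18.8 to 21.3 in Lip+ISO, so that the Lip+ISO libraries lay below all others. Shares follow from the levels above and were not tested.

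**Figure D3:**
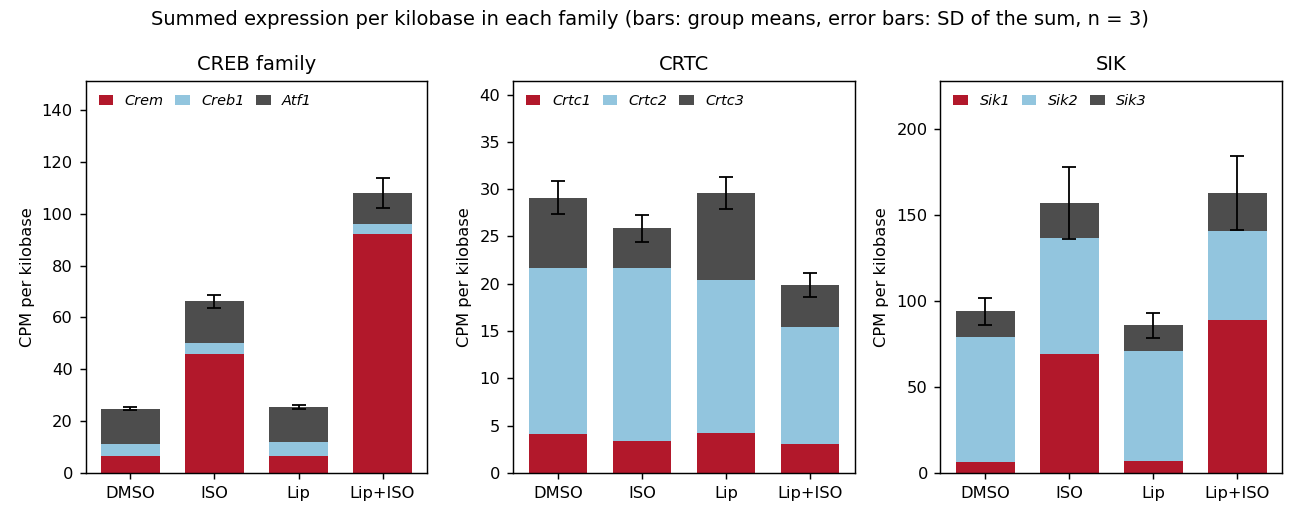
Stacked group means of expression in CPM per kilobase (vertical axes, from 0) for the 3 genes of each family in the 4 groups, with error bars for the SD of the family sum over 3 libraries. Crem and Sik1 take up most of the added height in the ISO and Lip+ISO bars, while the CRTC bar is lowest in Lip+ISO.

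Other genes of the pathway were described from lists written from general knowledge, with earlier results of these data known. The list of 20 cAMP-CREB targets, whose promoters or enhancers CREB is known to bind, was the one in which most genes moved. With ISO against DMSO, 18 of its 20 genes rose and none fell, with a median log2 fold change of 2.48 against 0.00 over all tested genes, and with Lip+ISO against Lip 19 rose and none fell, with a median of 2.12. Of all tested genes 12.3% rose with ISO against DMSO and 11.5% with Lip+ISO against Lip. The 2 genes that did not pass with ISO were Pck1 (log2 0.22 ± 0.26, edgeR adjusted p = 0.562) and Avpi1 (0.29 ± 0.15, 0.186). The largest rises with ISO were those of the orphan nuclear receptors Nr4a3, from 7.72 ± 2.43 to 808 ± 150.1 CPM (log2 6.72 ± 0.32, edgeR adjusted p = 1.6e-07), and Nr4a2, from 8.47 ± 2.04 to 186 ± 38.9 CPM (4.46 ± 0.28, 6.6e-07). With Lip against DMSO 0 of 20 passed, where only 0.00738% of all tested genes rose and 0.0443% fell. With Lip+ISO against ISO 3 rose and 2 fell, with a median of 0.11, where 4.36% of all tested genes rose and 4.59% fell. The largest rises there were those of Dio2, the deiodinase that makes active thyroid hormone (log2 2.94 ± 0.17, edgeR adjusted p = 1.3e-06), and of the cAMP phosphodiesterase Pde4d (1.29 ± 0.14, 9.7e-05). The falls were those of the immediate early gene Fos (-1.46 ± 0.17, 0.00017) and of Pck1, the gluconeogenic and glyceroneogenic enzyme (-1.11 ± 0.26, 0.0174). In the interaction 2 of the 20 passed, both positive as for Crem, namely Dio2 (2.52 ± 0.35, edgeR adjusted p = 0.00392) and Pde4d (1.31 ± 0.20, 0.00501). A positive interaction passed for 0.901% of all tested genes.

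Of 14 CREB relatives and acetyltransferase partners, 2 rose and 4 fell with ISO against DMSO and 3 rose and 5 fell with Lip+ISO against Lip. Over all tested genes 12.3% rose and 13.9% fell in the first comparison, and 11.5% rose and 15.8% fell in the second. The rises with ISO were those of the stress factors Atf3 (log2 1.94 ± 0.26, edgeR adjusted p = 0.00023) and Atf4 (0.86 ± 0.12, 0.00027), and the largest falls those of Creb5 (-0.96 ± 0.28, 0.0257) and Crebl2 (-0.79 ± 0.15, 0.00227). With Lip+ISO against ISO, Crebl2 (0.64 ± 0.15, edgeR adjusted p = 0.0207) and the acetyltransferase p300 gene Ep300 (0.43 ± 0.11, 0.0275) rose, and Creb3l2, a CREB relative of the endoplasmic reticulum, fell (-0.57 ± 0.09, 0.00208). Over all tested genes 4.36% rose and 4.59% fell there. Creb3l2 was also the 1 gene of this list with an interaction that passed (-0.61 ± 0.13, edgeR adjusted p = 0.0346), opposite in sign to that of Crem. A negative interaction passed for 0.724% of all tested genes.

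Upstream of the SIKs, 12 genes of the LKB1 complex, which activates all 3 kinases, and of the Ywha scaffold proteins, which hold phosphorylated CRTCs in the cytoplasm, were described next. With ISO against DMSO 2 rose, where 12.3% of all tested genes did, Ywhaz (log2 0.45 ± 0.09, edgeR adjusted p = 0.00213) and Stk11, which encodes LKB1 (0.33 ± 0.09, 0.0155) and overlaps the gene Dos, and 1 fell, where 13.9% did, the LKB1 partner Stradb (-0.48 ± 0.12, 0.0103). These shares of the list are near those over all tested genes. With Lip+ISO against Lip 3 rose and 1 fell, where 11.5% and 15.8% of all tested genes did. With Lip+ISO against ISO none passed, where 4.36% of all tested genes rose and 4.59% fell.

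Of 11 tested kinases related to AMPK, the wider family of the SIKs, 4 rose and 3 fell with ISO against DMSO, and 2 rose and 3 fell with Lip+ISO against Lip. Over all tested genes 12.3% rose and 13.9% fell in the first comparison, and 11.5% rose and 15.8% fell in the second. Within the list, the largest rises with ISO against DMSO were those of Brsk1 (log2 1.83 ± 0.41, edgeR adjusted p = 0.00646), which was low at 0.576 CPM in DMSO and overlaps Tmem150b, and of Snrk (1.44 ± 0.22, 0.00051). The largest falls were those of Nuak1 (-0.81 ± 0.18, edgeR adjusted p = 0.00584) and Mark2 (-0.34 ± 0.10, 0.0226). With Lip+ISO against ISO 2 fell, where 4.59% of all tested genes did, Brsk1 (-1.52 ± 0.41, edgeR adjusted p = 0.0356) and Mark1 (-1.06 ± 0.29, 0.0386). Both rises of Sik1 were larger than that of any gene of this list, the largest there being 2.04 ± 0.22 for Snrk in Lip+ISO against Lip.

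Of 8 genes for class IIa histone deacetylases, which SIKs also phosphorylate, and for calcineurin, which removes phosphate from CRTCs, 1 rose and 1 fell with ISO against DMSO, 1 rose with Lip+ISO against Lip, and 2 rose with Lip+ISO against ISO. The former were Hdac7 (log2 0.60 ± 0.19, edgeR adjusted p = 0.035, overlapping Slc48a1) and Hdac5 (-0.32 ± 0.08, 0.00987). The latter were Hdac4 (0.85 ± 0.14, edgeR adjusted p = 0.0029) and Hdac5 (0.40 ± 0.08, 0.00606). Over all tested genes 12.3% rose and 13.9% fell with ISO against DMSO, near the shares of this list. With Lip+ISO against Lip 11.5% of all tested genes rose, and with Lip+ISO against ISO 4.36% did. None of the 4 calcineurin genes passed in any comparison. Among these 4 lists together, none of the genes passed in Lip against DMSO, where only 0.00738% of all tested genes rose and 0.0443% fell.

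**Figure D4:**
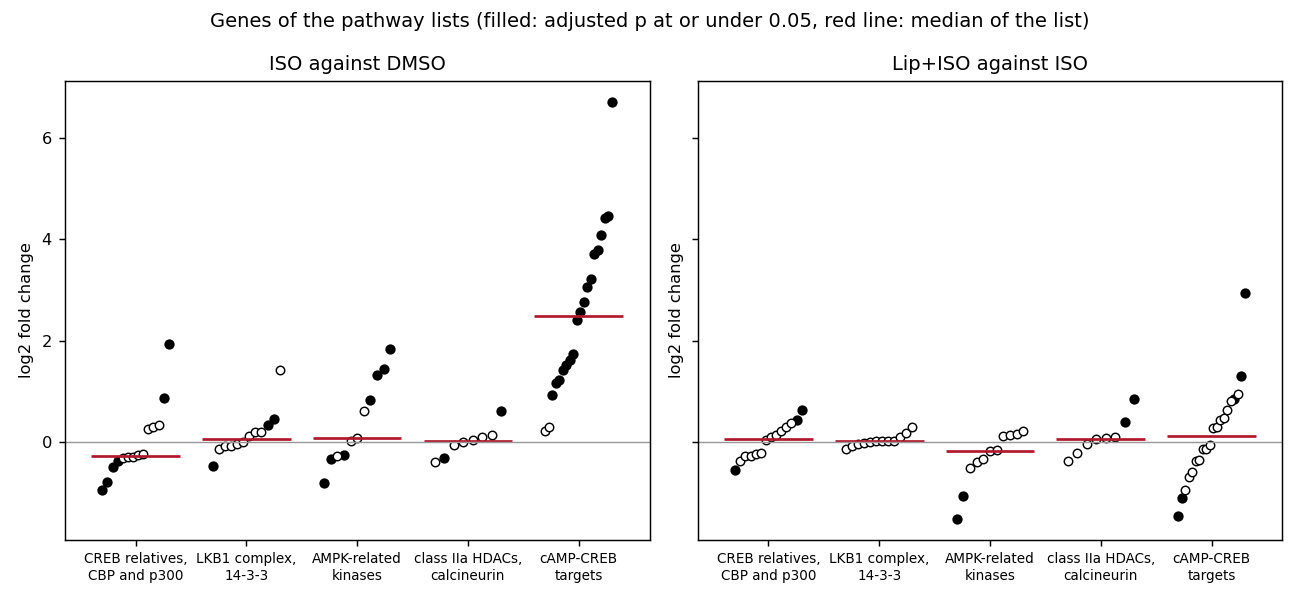
Log2 fold changes (vertical axis) of the genes of 5 pathway lists in ISO against DMSO and in Lip+ISO against ISO, each gene a point, filled where it passed an adjusted p of 0.05 over all tested genes, with a red line at the median of the list. The cAMP-CREB targets spread upwards with ISO around a median of 2.48, while the other lists lie around 0.

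The genes whose levels followed each member most closely were found by the correlation of log2 CPM over the 12 libraries with 9829 genes of at least 5 CPM on average. These libraries share 4 groups, so a high correlation mostly says that group means follow the same order. Crem was closest to Emd, Ugdh and Star (Pearson r = 0.997 each), and Ugdh, which makes UDP-glucuronate, went from 239 to 1588 CPM with ISO and to 2739 in Lip+ISO. Sik1 was closest to Nr4a3 of the target list (0.996), the uncoupling protein gene Ucp1 (0.995) and Csrnp1 (0.994). Among the members, Crem had r = 0.984 with Sik1 and 0.91 with Sik3. It had r = -0.922 with Creb1, -0.905 with Crtc3 and -0.855 with Crtc1. Creb1 was closest to Ccdc102a (0.976), Hspbap1 (0.975) and 1110038F14Rik (0.972), and Crtc3 to Gfod2 (0.971), the bacterial sensor Nod1 (0.969) and Senp8 (0.968). Crtc2 was closest to Gtf2ird1 (0.98), Fam20c (0.958) and Myo19 (0.945), and Crtc1 to Arhgap12 (0.964), Syne2 (0.961) and Ap4b1 (0.959). Genes close to Sik2 included the lipid droplet gene Plin1 (0.944) and Fam73b (0.937), Sik3 to Wdr20 (0.968), Dyrk1a (0.966) and Med13 (0.965), and Atf1 to Hdgfrp2 (0.907), Cblb and Abhd2 (0.905 each).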

How the data were processed

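The deposited table holds raw counts per RefSeq gene for 12 libraries and 2 deposited lengths per gene. The authors aligned reads to mm9 with STAR (2.4.2a) and counted them with HOMER, accepting 1 read per position and length, which may cap high counts, and iRNA-seq. Group and replicate came from the sample titles. Counts were tested in R 4.3.3 with edgeR 4.0.16 on 13543 genes kept by filterByExpr of 20295, with TMM factors of 0.924 to 1.07, 1 mean per group over all 12 libraries, two-sided quasi-likelihood F-tests and Benjamini-Hochberg adjustment over all tested genes. DESeq2 1.42.0 was an alternative. A gene passed at an adjusted p at or under 0.05. SEs and 95% intervals are Wald values from the fit. Log2 CPM used a prior count of 2. The pipeline was tested on simulated data, where 93 of 100 genes changed by 1 log2 unit and 100 of 100 changed by 2 were recovered among 13386 tested genes. The changed genes had at least 100 expected counts on average. Changes under 1 log2 unit and a replicate effect were not simulated, so the recovery of smaller changes is not known. Same-numbered libraries deviated together (r from 0.037 to 0.369 over 18 pairs, 17 of them above 0.1). All pairs exceeded 0.1 in ISO against DMSO, Lip+ISO against Lip and Lip against DMSO. ISO with Lip+ISO had r of 0.102, 0.311 and 0.037. These r are of deviations from the group mean, which sum to 0 within a group. With all 18 above 0, unlike-numbered libraries must therefore covary below 0 on average. Same-numbered libraries thus shared part of their spread, which the main fit does not model. The labels do not say what they share, and no p was computed for the pairing. The replicate block, which models it, is given as an alternative to the main fit. Promoter sequences are from RefSeq.

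The members and lists were chosen with earlier results of these data known. From each list, the 2 largest rises and 2 largest falls among passing genes in ISO against DMSO and in Lip+ISO against ISO are named, and for each member the 3 genes most alike, of which 1 is not reported here. Figures were drawn with matplotlib 3.10.9 in Python 3.11.15.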

Additional observations from a re-analysis of the deposited data

Results flagged for a closer look

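The response of Crem to ISO differed between the cells with and without lipase inhibitors by the test of the difference itself. The log2 fold change was 3.78 with and 2.85 without the inhibitors, and the interaction was 0.93 (edgeR adjusted p = 0.00495), with all 3 Lip+ISO libraries above all 3 ISO libraries. The call was lost without replicate 2 or without replicate 3 of every group. Crtc2 did not pass (-0.45, edgeR adjusted p = 0.118) but did with the replicate block (0.0158) and with library totals (0.0368).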

How the results depend on the processing

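The log2 fold changes of the 9 genes in the 4 comparisons and the interaction (45 values) kept direction and call in all 45 cases with DESeq2, and for 631 values from the 15 fits that left out libraries, where 14 lost a call, 6 gained one and 24 changed sign. Requiring a log2 fold change of at least 1 as well left 2 of 4 genes in ISO against DMSO (Crem, Sik1), 3 of 7 in Lip+ISO against Lip (these and Crtc3), 1 of 3 in Lip+ISO against ISO (Crem) and 0 of 1 in the interaction. The interaction had 2 genes with library totals in place of TMM, which added Crtc2 (-0.52, edgeR adjusted p = 0.0368), 2 with the replicate block (Crtc2, -0.45, 0.0158), and 0 to 1 over the fits that left out libraries. With the block, 6 genes passed in ISO against DMSO and 4 in Lip+ISO against ISO (adding Sik2, -0.37, edgeR adjusted p = 0.0367). The block changed no other call, and over all genes it gave 2552 higher and 2660 lower in ISO against DMSO, 6 and 21 in Lip against DMSO, 1149 and 1458 in Lip+ISO against ISO and 427 and 471 in the interaction. DESeq2 gave 19 and 33 in Lip against DMSO and 324 and 236 in the interaction. Library totals also added Sik2 in Lip+ISO against Lip (-0.42, edgeR adjusted p = 0.00989) and Lip+ISO against ISO (-0.41, 0.0335). Without length division the share of Crem was 17.1%, 59.4%, 17.5% and 78.4% in DMSO, ISO, Lip and Lip+ISO, and that of Sik1 8.25%, 48.9%, 9.91% and 57.8%. Signs changed for values near 0 that did not pass. Without the filter on low counts Atf1 was -0.00069 and Sik3 -6.6e-05 in Lip against DMSO. Fits that left out libraries ranged from -0.020 to 0.16 for Crem, -0.044 to 0.046 for Atf1, -0.031 to 0.058 for Crtc1, -0.21 to 0.34 for Sik1 and -0.041 to 0.049 for Sik3 in Lip against DMSO, from -0.021 to 0.15 for Crtc3 in Lip+ISO against ISO, and from -0.41 to 0.067 for the interaction of Sik2. The cause of these changes was not tested. With 3 libraries a group, 95% intervals of the 9 genes were wide enough that a p above the threshold does not show equal levels.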
